A study of Mus musculus with 38 samples.

Results

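The E protein genes Tcf3, Tcf12 and Tcf4 and the Id genes Id1, Id2 and Id3 were examined for occupancy by RUNX1, CTCF, Med12, p300 and Notch1-IC. The chromatin immunoprecipitation sequencing (ChIP-seq) libraries came from Cas9-LPs, which are Cas9-expressing lymphoid progenitor lines derived from the fetal liver of mice with Ebf1-deficient;Rosa26-Cas9 knock-in alleles, so every group lacks Ebf1 and carries Cas9. LP cells were grown on OP9 stroma without a Notch ligand, Phase 1 cells were Notch-stimulated on OP9-DLL4, and Phase 2 cells were at a later stage of the same culture. RUNX1, CTCF, Med12 and p300 were profiled in LP and Phase 1 cells without a guide RNA, and Notch1-IC at all 3 stages. RUNX1 was also profiled in LP cells with sgCont or sgCTCF and in Phase 1 cells with sgCont or sgMed12, and Med12 in Phase 1 cells with sgCont or sgCbfb, where sgCont targets luciferase. A peak was assigned to a gene when its centre lay inside the mm10 gene body or within 50 kb of either end. These 6 windows held 444 of the 359759 peaks of the 17 peak lists, 247 of them at the E protein genes and 197 at the Id genes. The lists give no read depth. In these bulk libraries, binding in fewer cells and weaker binding per cell cannot be told apart. Each list combines the 2 replicate libraries of its group, so no value below has a spread between replicates and no difference between stages or guides was tested. Shares are given with 95% Wilson intervals, which cover counting error only, beside the same share over the whole list.

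E proteins are basic helix-loop-helix transcription factors that bind E-box sequences as dimers and drive early B and T lymphocyte programs. Tcf3 encodes E2A (the E12 and E47 proteins), Tcf12 encodes HEB, for which a shorter form that starts at an internal promoter is known in T cell progenitors, and Tcf4 encodes E2-2, which is known for plasmacytoid dendritic cells. Id proteins have the helix-loop-helix but no basic region. They pair with E proteins and keep them off DNA, so the balance of both families is known to set E protein activity as lymphoid progenitors choose a lineage. RUNX1 is a sequence-specific factor that works with Cbfb. CTCF organises chromatin loops, Med12 belongs to the kinase module of Mediator, p300 is a histone acetyltransferase that marks active enhancers, and Notch1-IC is the cleaved intracellular part of Notch1 that acts through RBPJ.

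A stage-specific peak was defined as one that shares no base with any peak of the same factor in the other stage. The sequences below are 200 bases around the centre of RUNX1 peaks that carry the stage-specific patterns, on the plus strand of GRCm38 (mm10). Capitals mark matches on either strand to the RUNX letters TGTGGTT or TGCGGTT, the E-box letters CAGCTG or CAGGTG, the RBPJ letters GTGGGAA, the PU.1 letters GAGGAAGT, the GATA letters AGATAA, or the CTCF core motif with at most 1 mismatch. No sequence of Tcf4 is shown. The Phase 1-specific peak of Id1 is described without its sequence.

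These 2 LP-specific RUNX1 peaks were also LP CTCF peaks, and each holds a CTCF core match.
Id1, 30.4 kb downstream, chr2:152766561-152766760: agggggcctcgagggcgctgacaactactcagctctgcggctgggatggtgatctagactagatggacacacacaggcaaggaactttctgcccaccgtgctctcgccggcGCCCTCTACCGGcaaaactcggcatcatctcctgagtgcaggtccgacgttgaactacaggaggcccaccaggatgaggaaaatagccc
Id3, 20.2 kb downstream, chr4:136163573-136163772: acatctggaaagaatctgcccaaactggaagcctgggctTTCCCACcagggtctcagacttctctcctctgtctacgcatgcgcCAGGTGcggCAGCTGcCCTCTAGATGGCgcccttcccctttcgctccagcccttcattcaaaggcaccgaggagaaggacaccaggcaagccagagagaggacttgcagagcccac

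These LP-specific RUNX1 peaks lay outside CTCF peaks, and both hold E-box letters.
Id2, 1.70 kb upstream, chr12:25098745-25098944: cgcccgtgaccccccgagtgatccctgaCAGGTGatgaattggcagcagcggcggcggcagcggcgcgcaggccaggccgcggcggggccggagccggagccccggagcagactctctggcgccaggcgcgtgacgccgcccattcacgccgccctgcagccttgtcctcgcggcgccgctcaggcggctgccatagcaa
Id3, 31.0 kb upstream, chr4:136112437-136112636: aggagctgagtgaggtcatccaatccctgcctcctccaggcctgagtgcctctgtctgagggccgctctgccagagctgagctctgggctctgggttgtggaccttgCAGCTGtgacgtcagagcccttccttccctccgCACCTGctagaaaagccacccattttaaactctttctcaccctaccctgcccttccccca

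These are the highest-scored Phase 1-specific RUNX1 peaks of Tcf3, Tcf12 and Id3, and each holds RBPJ letters.
Tcf3, 9.51 kb upstream, chr10:80443057-80443256: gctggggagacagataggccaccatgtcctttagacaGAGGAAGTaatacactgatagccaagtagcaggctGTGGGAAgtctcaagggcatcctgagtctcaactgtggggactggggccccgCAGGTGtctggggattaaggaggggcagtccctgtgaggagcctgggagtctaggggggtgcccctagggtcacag
Tcf12, 223 kb downstream, chr9:71888510-71888709: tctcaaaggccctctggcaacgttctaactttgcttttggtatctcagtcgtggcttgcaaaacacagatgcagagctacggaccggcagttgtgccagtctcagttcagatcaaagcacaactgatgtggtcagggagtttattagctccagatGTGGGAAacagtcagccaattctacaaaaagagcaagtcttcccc
Id3, 2.93 kb upstream, chr4:136140466-136140665: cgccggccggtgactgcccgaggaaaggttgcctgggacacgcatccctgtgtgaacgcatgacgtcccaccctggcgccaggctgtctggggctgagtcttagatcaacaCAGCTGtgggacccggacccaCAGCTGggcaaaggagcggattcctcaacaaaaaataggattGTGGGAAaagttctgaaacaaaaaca

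This peak in an intron of E2f2 was the highest-scored RUNX1 peak of the Id3 window and was listed in both stages and with every guide. It holds a RUNX match, an E-box match and a CTCF core match that lies in a run of TGG repeats, and neither CTCF list had a peak there.
Id3, 34.3 kb downstream, chr4:136177704-136177903: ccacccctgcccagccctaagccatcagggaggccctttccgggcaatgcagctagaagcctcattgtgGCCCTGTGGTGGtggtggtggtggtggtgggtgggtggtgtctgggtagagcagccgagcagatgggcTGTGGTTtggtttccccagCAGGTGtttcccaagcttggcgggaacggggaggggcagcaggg

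The windows of Id3, Id1 and Tcf3 were rich in peaks, and those of Tcf4 were sparse. Id3 is a gene of 2.26 kb, and its window of 102 kb held 10 LP and 12 Phase 1 RUNX1 peaks, or 9.78 and 11.7 peaks per 100 kb. The medians over the windows of 21938 protein-coding genes were 2.20 and 2.64 peaks per 100 kb, and 97.5% and 99.0% of genes had a lower density than Id3. For p300, Id3 reached 10.8 peaks per 100 kb in LP and 12.7 in Phase 1, beside medians of 2.54 and 3.35. Id1, a gene of 1.16 kb, had 7.91 LP and 5.93 Phase 1 RUNX1 peaks per 100 kb. Tcf3 had 4.83 and 5.64. The window of Tcf12 spans 369 kb and stood close to the median for RUNX1, with 2.71 and 3.25 peaks per 100 kb. Id2 had 2.90 in LP and 1.94 in Phase 1. Tcf4 had the lowest RUNX1 density of all 6 genes in both stages, with 1.35 and 1.57. CTCF followed a similar order, from 2.02 LP peaks per 100 kb at Tcf4 to 8.80 at Id3. Other protein-coding genes share these windows, 4 with Tcf3 (Plk5, Mex3d, Mbd3 and Uqcr11), 4 with Id1 (H13, Mcts2, Cox4i2 and Bcl2l1), 1 with Id2 (Kidins220), 1 with Id3 (E2f2) and none with Tcf12 or Tcf4. By the annotation deposited with the lists, the nearest transcription start was that of a member gene for 267 of the 444 peaks.

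**Figure D1:**
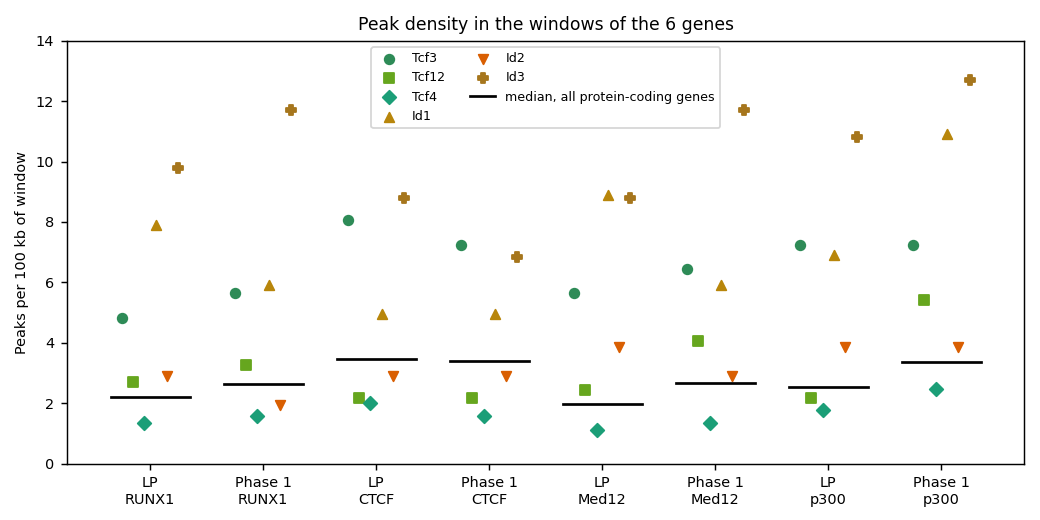
Peaks per 100 kb of window (y axis) in the LP and Phase 1 lists of RUNX1, CTCF, Med12 and p300 (x axis) for each of the 6 genes, with the median over 21938 protein-coding genes as a black line. Id3 reaches 11.7 Phase 1 RUNX1 peaks per 100 kb, and Tcf4 lies under the median in every list.

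From LP to Phase 1 the number of peaks in the 6 windows went from 43 to 46 for RUNX1, from 44 to 39 for CTCF, from 43 to 50 for Med12 and from 47 to 68 for p300. The whole lists also grew, from 31995 to 38399 peaks for RUNX1 and from 36182 to 49116 for p300. The differences of 21 p300 and 7 Med12 peaks rested largely on low-scored peaks, since with a minimum score of 30 they were 4 and 1. Without the gene with the most peaks in each list they were 12 and 1. The gene left out differed between the stages, for p300 Id3 in LP and Tcf12 in Phase 1. Those values therefore do not compare the same genes. The windows held 0.13% of the LP p300 list and 0.138% of the Phase 1 list. The further p300 peaks of Phase 1 were unevenly placed. Tcf12 went from 8 to 20 p300 peaks, Id1 from 7 to 11 and Tcf4 from 8 to 11, whereas Tcf3 had 9 and Id2 had 4 in both stages. At Id2, 3 of the 4 LP and 3 of the 4 Phase 1 p300 peaks had no overlapping peak in the other stage (75.0% each, interval 30.1 to 95.4%). Over the whole lists those shares were 20.7% and 41.6%. Among these Id2 peaks, an LP (40.9) and a Phase 1 (49.3) peak lay next to each other about 42.4 kb downstream. They count as stage-specific only because they share no base. Med12 followed the same split at Tcf12, with 9 LP and 15 Phase 1 peaks, and at Id3, with 9 and 12, and ran the other way at Id1, with 9 and 6. CTCF had the same number of peaks in each stage at Tcf12 (8), Id1 (5) and Id2 (3).

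**Figure D2:**
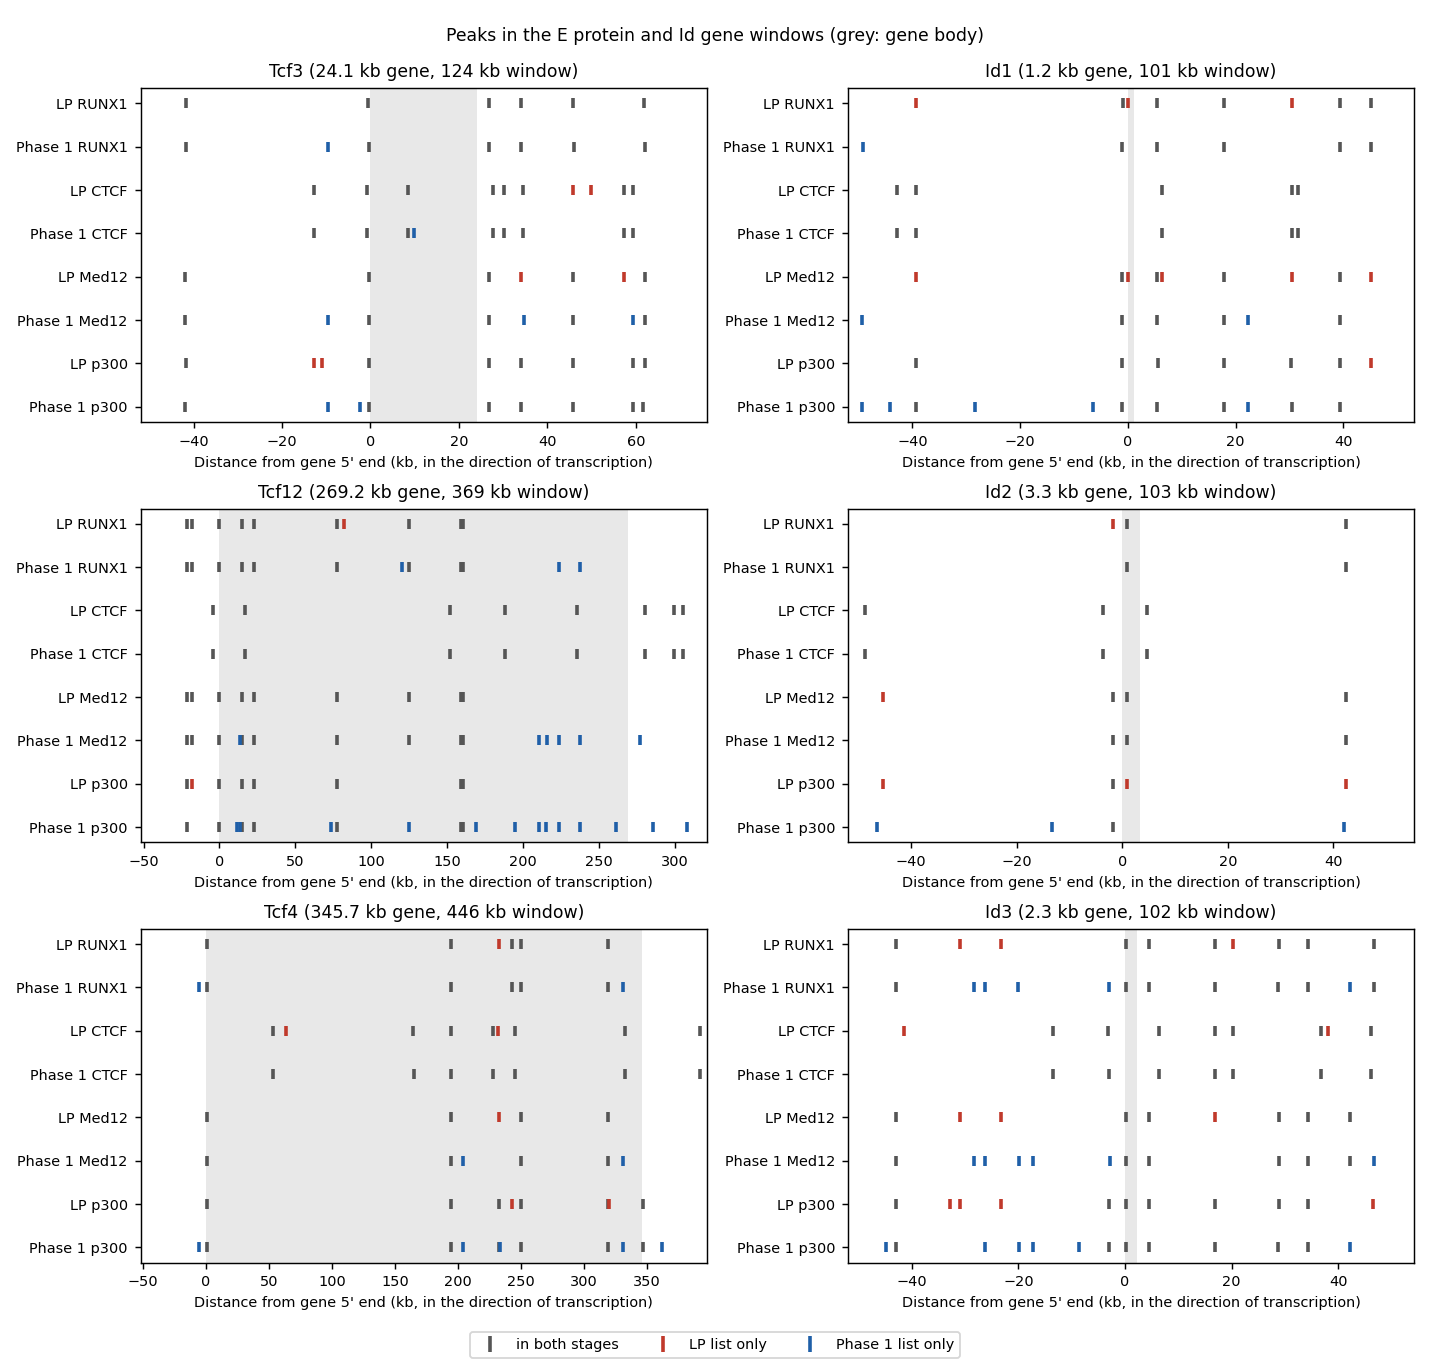
Position of every RUNX1, CTCF, Med12 and p300 peak relative to the 5′ end of each gene (x axis, kb in the direction of transcription) by list (y axis), with the gene body in grey, peaks found in both stages in dark grey, peaks of the LP list only in red and of the Phase 1 list only in blue. Tcf12 shows 13 blue p300 peaks, most of them inside the gene, and Id3 shows red and blue RUNX1 peaks in turn upstream of the gene.

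When overlapping peaks of all lists were joined, the windows held 120 sites, 70 at the E protein genes and 50 at the Id genes. CTCF without RUNX1, Med12 or p300 in the lists without a guide was found at 31 of them, and RUNX1, Med12 and p300 were listed together at 37 sites in LP, at 36 in Phase 1 and at 26 in both. In the same lists, 35 of the 120 sites had RUNX1, Med12 or p300 in Phase 1 and none of them in LP. Over the genome that share was 22.2% of all joined sites. The reverse held at 12 of the 120, beside 7.02% of all joined sites. The same lean was present over the whole genome. Of those 35 sites, 17 had p300 alone and 7 had all 3 factors. Tcf12 held 14 of the 35 and Id2 held 2. By the deposited annotation, promoter peaks were a steady part of the lists, with 12 LP and 11 Phase 1 RUNX1 peaks and 10 LP and 11 Phase 1 p300 peaks. The count of intronic p300 peaks was 17 in LP and 29 in Phase 1, and that of intergenic ones 19 and 26. Only 3 of 44 LP and 2 of 39 Phase 1 CTCF peaks were annotated as promoter. Except for the 35 and 12 sites, no share over the genome or the whole lists stands beside the counts of this paragraph. They describe these windows and do not show a difference from other genes.

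Of the 43 LP RUNX1 peaks, 9 were LP-specific (20.9%, interval 11.4 to 35.2%), beside 16.8% of the whole list. Of the 46 Phase 1 RUNX1 peaks, 12 were Phase 1-specific (26.1%, interval 15.6 to 40.3%), beside 30.7% of the whole list. Both shares lie near the background, and their order turned when lists of equal length were taken, with 12 of 43 LP-specific (27.9%) and 7 of 38 Phase 1-specific (18.4%). The LP-specific peaks fell mostly on the Id genes, where 7 of 21 LP RUNX1 peaks (33.3%, interval 17.2 to 54.6%) were LP-specific, beside 2 of 22 at the E protein genes (9.09%, interval 2.53 to 27.8%). These intervals overlap. Phase 1-specific peaks were found in both families, with 6 of 26 at the E protein genes and 6 of 20 at the Id genes. Those of the Id genes were mostly at Id3, with 5 there, 1 at Id1 and none at Id2. LP-specific Med12 peaks were likewise 9 of 22 at the Id genes (40.9%, interval 23.3 to 61.3%) and 3 of 21 at the E protein genes (14.3%, interval 4.98 to 34.6%). Over all 6 genes they were 12 of 43 (27.9%), beside 19.5% of the whole list. That share depends on which Phase 1 list is used, because 7 of the 12 LP-specific Med12 peaks (58.3%, interval 32.0 to 80.7%) were present in the Phase 1 Med12 list of sgCont or sgCbfb, beside 29.8% of the whole list, and requiring absence from those lists too left 5 of 43 (11.6%). None of the 9 LP-specific RUNX1 peaks was in a Phase 1 RUNX1 guide list, beside 0.241% of the whole list, but those lists are short, with 1550 and 2094 peaks.

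For Med12, 19 of 50 Phase 1 peaks were Phase 1-specific (38.0%, interval 25.9 to 51.8%), beside 38.2% of the whole list. For p300, 13 of 47 LP peaks were LP-specific (27.7%, interval 16.9 to 41.8%), beside 20.7%, and 34 of 68 Phase 1 peaks were Phase 1-specific (50.0%, interval 38.4 to 61.6%), beside 41.6%. Of those 34, 13 lay at Tcf12, where they made up 13 of the 20 p300 peaks. The other 21 were spread over the other 5 genes. The CTCF shares were low, with 6 of 44 LP peaks LP-specific (13.6%, interval 6.40 to 26.7%), beside 9.55%, and 1 of 39 Phase 1 peaks Phase 1-specific (2.56%, interval 0.454 to 13.2%), beside 8.35%. The single Phase 1-specific CTCF peak lay 9.89 kb inside Tcf3, with a score of 17.8. All 9 LP-specific and all 12 Phase 1-specific RUNX1 peaks were over 1 kb, centre to centre, from the nearest RUNX1 peak of the other stage. For Med12, 2 of the 12 LP-specific and 2 of the 19 Phase 1-specific peaks had such a neighbour within 1 kb, and for p300, 2 of the 13 and 2 of the 34, the nearest at 352 bp.

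**Figure D3:**
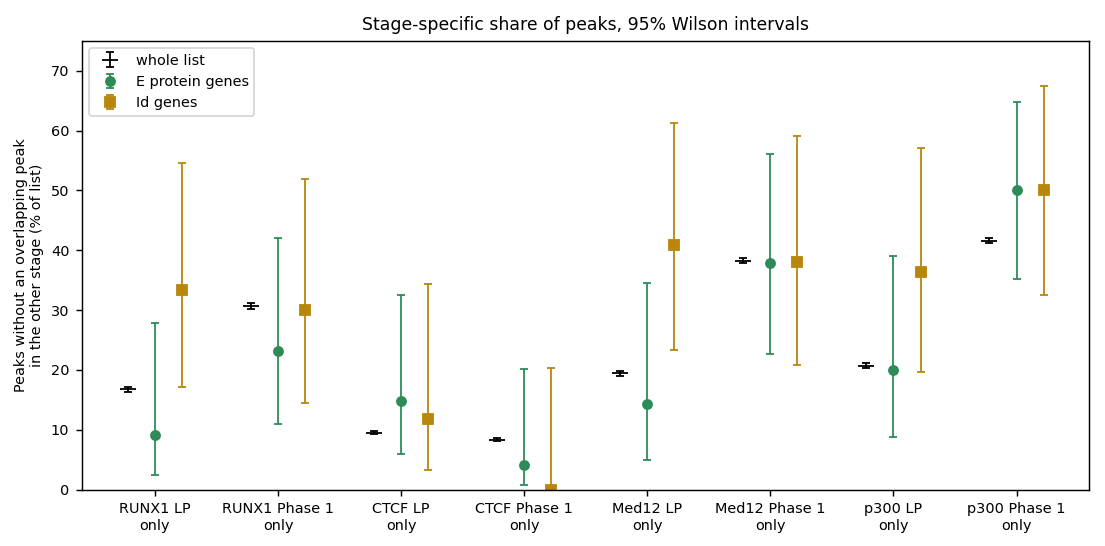
Share of peaks with no overlapping peak of the same factor in the other stage (y axis, percent) for each factor and stage (x axis), in the whole list, at the E protein genes and at the Id genes, with 95% Wilson intervals as bars. The Id genes lie at 33.3% for LP-specific RUNX1 and the E protein genes at 9.09%, with overlapping intervals.

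The score is the normalized tag count that the authors' peak caller gave each peak, and peaks are ranked by it only within a list. Scores of several lists are printed side by side, but their differences are not read as gain or loss, because read depth is unknown. The 9 LP-specific peaks scored from 19.4 to 53.9 with a median of 36.1, beside 49.2 for the 34 shared peaks of the windows and 22.8 for LP-specific peaks of the whole list. The 12 Phase 1-specific peaks scored from 15.2 to 84.4 with a median of 22.4, beside 71.0 for the shared peaks and 23.2 for Phase 1-specific peaks of the whole list. Other factors were found at most of them. At the LP-specific peaks LP Med12 was present at 7 of 9 (77.8%, interval 45.3 to 93.7%), beside 61.9% of the whole list, and LP p300 at 6 of 9 (66.7%, interval 35.4 to 87.9%), beside 76.0%. At the Phase 1-specific peaks Phase 1 Med12 was present at 10 of 12 (83.3%, interval 55.2 to 95.3%), beside 75.0%, and Phase 1 p300 also at 10 of 12, beside 79.6%. At 4 of the 9 LP-specific peaks p300 was still listed in Phase 1, beside 27.5% of the whole list, and Med12 at 1 of 9, beside 15.0%. These counts use the lists without a guide. Some of the LP-specific peaks without Med12 there, such as that at the Id1 start, had Med12 in a Phase 1 guide list. In the other direction, 1 of the 12 Phase 1-specific peaks already had an LP Med12 peak, beside 8.40%, and 1 had an LP p300 peak, beside 19.4%. For the 4 shares of Med12 and p300 of the same stage, the whole-list share lies inside the interval.

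**Figure D4:**
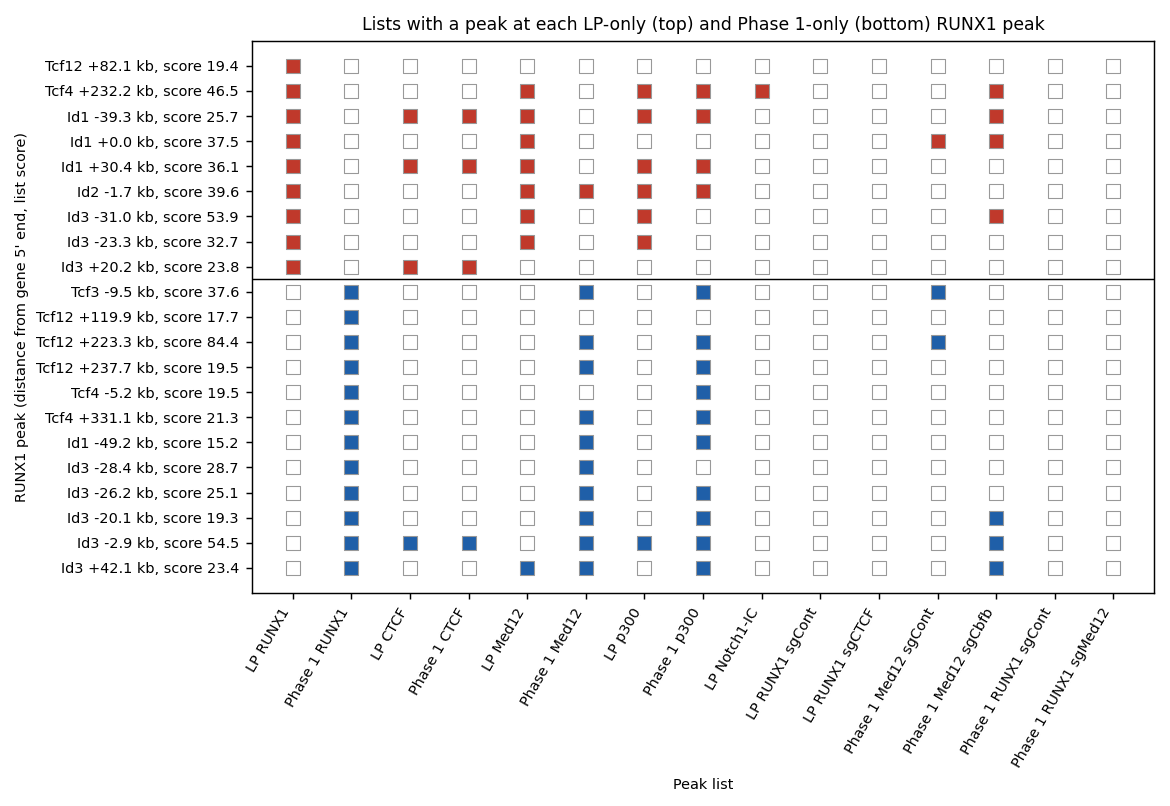
Each row is an LP-specific (red, top) or Phase 1-specific (blue, bottom) RUNX1 peak, named by gene, distance from the gene's 5′ end and score, and each column is a peak list, with a filled square where that list has an overlapping peak. The Phase 1 and Phase 2 Notch1-IC lists are left out because they have no peak in the windows. CTCF squares are filled at 3 of the 9 LP-specific and 1 of the 12 Phase 1-specific rows.

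All 6 LP RUNX1 peaks of the Tcf3 window were also in the Phase 1 list, which had 1 more. The promoter peak, 453 bp upstream of the 5′ end of the gene in the LP list, scored 292.2 in LP and 368.6 in Phase 1, where it was the highest-scored RUNX1 peak of the window. LP CTCF (60.8) and Phase 1 CTCF (93.8) peaks overlap its edge, and the start also had Med12 peaks with scores of 380.5 and 264.7 and p300 peaks with scores of 278.0 and 433.8. The highest-scored LP RUNX1 peak, with a score of 420.2, lay 34.0 kb downstream of the Tcf3 5′ end, at the promoter of the neighbouring gene Mbd3, and had a Phase 1 score of 281.3. There the LP Med12 list had a peak with a score of 316.9 and the Phase 1 Med12 list had none, its nearest peak being 653 bp away, but both Phase 1 guide lists had a Med12 peak, with scores of 177.3 for sgCont and 178.0 for sgCbfb. The further RUNX1 peak was intergenic, 9.51 kb upstream, with a Phase 1 score of 37.6, and came with Med12 (32.3) and p300 (57.9) peaks that were also absent from LP. CTCF was dense around Tcf3, with 10 LP and 9 Phase 1 peaks, the highest of them 12.7 kb upstream with scores of 361.9 and 474.1.

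Tcf12 had a group of Phase 1-specific peaks toward the 3′ end of the gene. It had 10 LP and 12 Phase 1 RUNX1 peaks, of which 1 was LP-specific and 3 were Phase 1-specific, all in introns. The leading one lay 223 kb downstream of the 5′ end at chr9:71888445-71888773 and scored 84.4, higher than 73.6% of the Phase 1 list. It is 3898 bp upstream of an annotated internal start of Tcf12. Phase 1 Med12 (80.5) and p300 (220.7) peaks overlapped it, and no LP list had a peak there. A weaker Phase 1-specific RUNX1 peak at 238 kb (score 19.5) also had Phase 1 Med12 (28.7) and p300 (61.2) peaks. Closer to the 5′ end, a Phase 1-specific Med12 peak with a score of 30.5 and a p300 peak with a score of 26.9 sat within 1 kb of another group of internal starts, at 216 and 215 kb, with no RUNX1 peak. A further pair of Med12 (16.0) and p300 (29.9) peaks lay at 210 kb. In the same stretch the CTCF peaks at 188 and 235 kb were in both stages. The third Phase 1-specific RUNX1 peak, at 120 kb with a score of 17.7, and the LP-specific peak, at 82.1 kb with a score of 19.4, had no other factor. The peaks shared by both stages included the main start (RUNX1 scores of 68.1 and 84.2) and an intronic site at 14.6 kb with the highest RUNX1 scores of the window (119.6 in LP and 168.2 in Phase 1). The highest p300 peak, at 160 kb, scored 232.4 in LP and 350.3 in Phase 1.

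Tcf4, the sparsest window, had 3 stage-specific RUNX1 peaks. The peak at its annotated start, 1.08 kb inside the longest gene model, was the highest-scored RUNX1 peak in LP (87.1) and in Phase 1 (119.0), and held Med12 and p300 in both stages. An LP-specific intronic RUNX1 peak at 232 kb with a score of 46.5 carried LP Med12 (51.2), LP p300 (71.8) and LP Notch1-IC (19.8) peaks. Of these, p300 was also in the Phase 1 list with a score of 18.5, and Med12 was in the Phase 1 sgCbfb list (23.5). An LP-specific CTCF peak with a score of 20.9 lay next to it without overlap. Of the 2 Phase 1-specific RUNX1 peaks, one was at 331 kb in an intron (score 21.3) with Med12 and p300, and the other was 5.21 kb upstream of the gene (score 19.5) with p300 alone. The strongest CTCF peak was intronic, at 165 kb, with scores of 155.1 and 152.6.

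At Id1, RUNX1 peaks at the start and at CTCF sites were listed in LP and not in Phase 1. Of its 8 LP RUNX1 peaks 3 were LP-specific. One centred 11 bp upstream of the annotated start at chr2:152736070-152736410 and scored 37.5. LP Med12 (35.1) was the only other unguided list with a peak there, although the Phase 1 Med12 lists of sgCont (30.5) and sgCbfb (40.0) had one too. The nearest Phase 1 RUNX1 peak was 1071 bp away, at a site 1.08 kb upstream that both stages shared, with RUNX1 scores of 41.4 and 72.2 and p300 scores of 103.5 and 238.1. The other LP-specific peaks lay 39.3 kb upstream in an intron of H13 (score 25.7) and 30.4 kb downstream between genes (score 36.1), both on high-scored CTCF peaks listed in both stages. Those CTCF peaks scored 249.8 in LP and 312.5 in Phase 1 at the first site, and 337.2 and 399.1 at the second, which is the highest CTCF peak of the window. LP Med12 and p300 were listed at both sites, and in Phase 1 p300 was listed and Med12 was not, apart from an sgCbfb Med12 peak (26.3) at the upstream site. The site 5.43 kb downstream was the highest-scored RUNX1 peak of Phase 1 (119.6, higher than 83.9% of its list) and scored 39.2 in LP, with Med12 (32.9 and 130.8) and p300 (84.1 and 221.6) in both stages. The Phase 1-specific RUNX1 peak, 49.2 kb upstream in H13, had a score of 15.2, close to the minimum of 15 that the authors kept.

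Id2 had the fewest peaks. Its window held 3 LP and 2 Phase 1 RUNX1 peaks. The start peak scored 74.9 in LP and 71.0 in Phase 1, the highest in each stage, with Med12 scores of 69.9 and 68.6. The LP p300 peak at this start (67.7) had no overlapping Phase 1 p300 peak. The LP-specific RUNX1 peak was 1.70 kb upstream at chr12:25098674-25099014 with a score of 39.6, and Med12 (49.0 and 50.7) and p300 (62.1 and 105.3) were listed there in both stages. Among the 9 LP-specific RUNX1 peaks it was the only one with a peak in the unguided Phase 1 Med12 list. Some of the others, such as the peak at the Id1 start, had Med12 in a Phase 1 guide list. Its 3 CTCF peaks were the same in both stages, the strongest 4.72 kb downstream with scores of 238.5 and 238.9.

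Id3 had the most stage-specific RUNX1 peaks, with 3 LP-specific and 5 Phase 1-specific peaks. The density of Phase 1-specific RUNX1 peaks, 4.89 per 100 kb, was higher than that of 99.5% of protein-coding genes, and that of LP-specific peaks, 2.93, higher than 98.2%. For all RUNX1 peaks, 97.5% (LP) and 99.0% (Phase 1) of genes had a lower density. As shares, 3 of 10 LP peaks were LP-specific (30.0%, interval 10.8 to 60.3%), beside 16.8% of the whole list. In Phase 1, 5 of 12 were stage-specific (41.7%, interval 19.3 to 68.0%), beside 30.7%. Both intervals hold the whole-list share. From about 31 to 20 kb upstream both kinds lay side by side. LP-specific peaks stood 31.0 kb (score 53.9) and 23.3 kb (score 32.7) upstream, and Phase 1-specific peaks 28.4 kb (28.7), 26.2 kb (25.1) and 20.1 kb (19.3) upstream. Every one of these 5 peaks had a Med12 peak of its own stage. All but the peak 28.4 kb upstream also had p300, and none had Med12 or p300 of the other stage in the unguided lists. Closer to the gene, the highest-scored Phase 1-specific peak lay 2.93 kb upstream at chr4:136140401-136140729 (score 54.5), with CTCF and p300 already listed in LP (30.7 and 35.2) and with Phase 1 scores of 39.7 for CTCF, 75.9 for Med12 and 181.3 for p300. The last Phase 1-specific peak was 42.1 kb downstream in an intron of E2f2 (score 23.4). The third LP-specific peak, 20.2 kb downstream (score 23.8), overlapped the strongest CTCF peak of the window (305.6 in LP and 358.8 in Phase 1) and no Med12 or p300 peak. RUNX1 was listed in both stages at the start (126.2 and 151.7), at 4.45 kb (168.0 and 212.2) and at the E2f2 intron 34.3 kb downstream (319.1 and 288.4). That last peak was the highest-scored of the window in both stages, above 98.8% of the LP and 97.9% of the Phase 1 list.

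CTCF overlapped 3 of the 9 LP-specific RUNX1 peaks (33.3%, interval 12.1 to 64.6%), beside 36.8% of the whole list, and 1 of the 12 Phase 1-specific peaks (8.33%, interval 1.49 to 35.4%), beside 6.96%. All 3 were at Id1 and Id3, and all 3 CTCF peaks were also in the Phase 1 CTCF list, where RUNX1 was not listed. Among the 34 LP RUNX1 peaks that were shared between stages, CTCF overlapped 4 (11.8%, interval 4.67 to 26.6%), beside 20.5% of the whole list.

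Letters in the 200 bases around the stage-specific peaks were counted, without intervals, and no difference between the 2 kinds was tested. The CTCF core was matched in 3 of the 9 LP-specific and in none of the 12 Phase 1-specific peaks, beside 23.2% and 3.11% of such peaks in the whole lists. Those 3 matches were the 3 peaks with CTCF. E-box letters were in 5 of 9 LP-specific peaks (55.6%), beside 39.9%, and in 3 of 12 Phase 1-specific peaks (25.0%), beside 27.3%. RBPJ letters were in 6 of 12 Phase 1-specific peaks (50.0%), beside 7.05% of the whole list, and in 2 of 9 LP-specific peaks, beside 3.31%. The 6 peaks are the one of Tcf3, those of Tcf12 at 223 and 238 kb, that of Tcf4 at 331 kb and those of Id3 at 28.4 and 2.93 kb upstream. Among all RUNX1 peaks of the windows, RBPJ letters were in 4 of 43 in LP (9.30%), beside 4.23% of the whole list. In Phase 1 they were in 8 of 46 (17.4%), beside 5.28%. The RBPJ share was noticed after the sequences were read, and a match is a description of letters and not a binding site. The RUNX letters were in 2 of the 12 Phase 1-specific peaks, beside 29.8%, and in none of the 9 LP-specific ones, beside 13.6%. PU.1 letters were in 1 and 0 of them, beside 7.09% and 8.10%, and GATA letters in 1 and 0, beside 12.4% and 6.60%.

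Notch1-IC peaks were in 2 of the 6 windows in LP cells and in none in Phase 1 or Phase 2. Of all protein-coding gene windows, 11.9% held an LP, 1.61% a Phase 1 and 2.68% a Phase 2 Notch1-IC peak, so at lists of 152 and 352 peaks a window without a peak is the usual case. The LP list is longer, with 1585 peaks from cells grown without a Notch ligand. Peaks in LP and none later therefore do not show that Notch1-IC was lost on stimulation. The study counts more reproducible Notch1-IC peaks at these stages than the deposited lists hold, so the absence of a listed peak does not show absence of Notch1-IC. The LP peaks were the one inside Tcf4 at 232 kb (score 19.8) and one in the E2f2 intron, 34.5 kb downstream of the Id3 5′ end (score 20.0), which shares its edge with the LP RUNX1 peak shown above. Both scored close to the LP list's median of 20.3. The nearest Phase 2 peak to Id3 was 54.3 kb from the gene, just outside the window, with a score of 16.3. For LP, peaks 52.3 kb from Id1 (score 25.0, in Bcl2l1) and 67.8 kb from Id2 (score 15.9) were also outside.

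The guide lists reached few sites. The RUNX1 lists were short, with 975 and 874 LP peaks for sgCont and sgCTCF and 1550 and 2094 Phase 1 peaks for sgCont and sgMed12. The study gives small cell numbers and raised noise as limits of the ChIPs from deleted cells. The E2f2 intron site downstream of Id3 was in all 4, with scores of 53.9 for LP sgCont, 52.7 for LP sgCTCF, 62.2 for Phase 1 sgCont and 36.1 for Phase 1 sgMed12. It was the only sgCont RUNX1 peak of the windows in either stage, so the share found again was 1 of 1 with sgCTCF, beside 59.1% of the whole list, and 1 of 1 with sgMed12, beside 71.0%. The LP sgCTCF list had 2 more peaks, at the starts of Tcf3 (26.3) and Id3 (25.9), which were in both unguided RUNX1 lists. None of the 21 stage-specific RUNX1 peaks was in a RUNX1 guide list.

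The Med12 guide lists were longer, with 19053 peaks for sgCont and 18099 for sgCbfb, and held 26 and 30 peaks in the windows. Of the 26 sgCont peaks 19 were found with sgCbfb (73.1%, interval 53.9 to 86.3%), beside 67.8% of the whole list. In the other direction 19 of the 30 sgCbfb peaks were found with sgCont (63.3%), beside 71.4% of the whole list. At the E protein genes 4 of 16 sgCont peaks were absent with sgCbfb, and 3 of 15 sgCbfb peaks were absent with sgCont. At the Id genes those counts were 3 of 10 and 8 of 15. No difference between the families was tested. At Tcf12 the list went from 5 peaks with sgCont to 3 with sgCbfb, and at Id3 from 5 to 9. Among the 12 Phase 1-specific RUNX1 peaks, sgCont Med12 was present at 2 (16.7%, interval 4.70 to 44.8%), beside 9.81% of the whole list, and sgCbfb Med12 at 3 (25.0%, interval 8.89 to 53.2%), beside 5.19%. The sgCont peaks were those of Tcf3 at 9.51 kb upstream (18.2) and of Tcf12 at 223 kb (17.2), and neither was in the sgCbfb list. The sgCbfb peaks were those of Id3 at 20.1 kb upstream (15.8), 2.93 kb upstream (39.4) and 42.1 kb downstream (16.5), and none of them was in the sgCont list. Apart from the peak 2.93 kb upstream of Id3, these guide peaks scored close to the minimum of 15. Their absence from the other list therefore does not show Med12 loss or gain. With a minimum score of 30, 13 of 14 sgCont Med12 peaks of the windows were found with sgCbfb (92.9%). The Med12 peak at the most RUNX1-rich Id1 site of Phase 1, 5.46 kb downstream in the sgCont list (30.0), was also absent with sgCbfb.

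Stage-specific RUNX1 peaks were found at most of the 6 genes. LP-specific peaks were in 5 windows, all but that of Tcf3, beside 38.4% of all protein-coding gene windows, and Phase 1-specific peaks in 5 windows, all but that of Id2, beside 52.3%. The windows differ in length, from 101 kb at Id1 to 446 kb at Tcf4. Of 13 genes for partners and cofactors of E proteins, such as Lmo2 and Ldb1, which join E protein complexes, 3 had an LP-specific RUNX1 peak (Ldb1, Cbfa2t2 and Cbfa2t3) and 6 a Phase 1-specific one (Id4, Lyl1, Lmo2, Lmo4, Cbfa2t2 and Cbfa2t3). These shares, 23.1% and 46.2%, were below the 38.4% and 52.3% of all windows. Of 19 genes known as E protein or Id-related targets, such as the recombinase genes Rag1 and Rag2 and the inhibitor of the cell cycle Cdkn1a, 13 had an LP-specific and 15 a Phase 1-specific RUNX1 peak. Those shares, 68.4% and 78.9%, were above the 38.4% and 52.3% of all windows. No difference from all windows was tested for either gene list. Genes that lie close together can share a peak, which was then counted for each. Notch1-IC peaks were in the windows of 7 of the 19 targets in LP (among them Ptcra, the pre-T cell receptor alpha chain), beside 11.9% of all windows. They were in 2 in Phase 1 (Notch1 and Hes1), beside 1.61%, and in 5 in Phase 2 (Ptcra, Il7r, Notch1, Socs3 and Hes1), beside 2.68%. Of the 13 partners and cofactors, 2 had one in LP (Lyl1 and Cbfa2t3) and none in Phase 1 or Phase 2. The list of targets includes Hes1, where the paper reports Notch1-IC binding. The Notch1-IC counts therefore do not separate E protein targets from Notch targets.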

How the data were processed

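Peak lists were analysed for 17 ChIP groups, each made from 2 replicate libraries. The 38 libraries of the series form 19 groups with the LP and Phase 1 inputs. Per the labels and the study's methods, the authors mapped reads to mm10 with Bowtie 1.1.1, called peaks against a control with HOMER in factor style, kept those that passed the irreproducible discovery rate over the 2 replicates at a normalized peak score of 15 or more, and annotated them to the nearest RefSeq start. The deposited lists hold 1 score per peak, positions and distances, with no value per replicate, so read depth is unknown and no test over samples was made. The peaks of each list have 1 width (341 bp in LP RUNX1, 329 bp in Phase 1 RUNX1), apart from Phase 2 Notch1-IC (123 to 173 bp).

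Gene bodies, transcript starts and exons were taken from GENCODE vM21 (GRCm38). A peak belonged to a gene when its centre lay within 50 kb of the gene body, overlap meant 1 shared bp, and "at a start" meant a centre within 1 kb of an annotated start. Peak density was compared with the windows of 21938 protein-coding genes. Sequences of 200 bases were read from GRCm38.p6. Single peaks were named when they were Notch1-IC peaks, stage-specific RUNX1 peaks (up to 3 per gene and kind by score), the highest-scored peak of a factor and stage, RUNX1 peaks of a guide list, or sgCont Med12 peaks at a Phase 1-specific RUNX1 peak. The remaining peaks named (the further Id3 peaks, Phase 1-specific Med12 and p300 peaks of Tcf12, shared and CTCF sites, sgCbfb peaks) and 3 of the sequences (Id2 at 1.70 kb, Id3 at 31.0 and 34.3 kb) were chosen after their values were seen. The genes, gene lists and comparisons were chosen with earlier results of these data known. Overlap and window code was tested on simulated peaks. Python 3.11.15, pandas, numpy and scipy were used. Alternatives in window size, minimum score, overlap, promoter peaks, gene assignment, genes and list length were tried.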

Additional observations from a re-analysis of the deposited data

How the results depend on the processing

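No paired analysis was possible because each list combined both replicates of its group. The 13 shares were recomputed under up to 8 alternatives and 1 more chosen after seeing the data, giving 97 values. Of these, 89 stayed within the 95% interval of the value in the report. Those intervals are wide, for example 20.7 to 100% for the 1-of-1 guide shares. For the CTCF share of LP-specific RUNX1 peaks the interval is 12.1 to 64.6%. Staying inside such an interval is weak evidence of stability. With a minimum score of 30 in every list, Med12 was at 8 of 8 Phase 1-specific RUNX1 peaks (100%), the Phase 1-specific CTCF share was 0.0%, the Phase 1-specific p300 share was 37.5% and 92.9% of sgCont Med12 peaks were found with sgCbfb. The number of RUNX1 peaks in Phase 1 minus that in LP then turned from 3 to -2, and the same difference went from 21 to 4 for p300 and from 7 to 1 for Med12. Without the gene with the most peaks in each list it was 12 for p300 and 1 for Med12. The genes left out then differed between LP and Phase 1. When only peaks whose nearest start is a member gene were kept, CTCF was at 0.0% of LP-specific RUNX1 peaks (0 of 6), since all 3 sites at Id1 and Id3 are nearest to other genes. Leaving out Tcf3, the gene with the most CTCF peaks, gave a Phase 1-specific CTCF share of 0.0%. With lists of equal length the Phase 1-specific p300 share was 38.3%, as was the LP-specific one (27.7% before), and the LP-specific RUNX1 share (27.9%, 12 of 43) was above the Phase 1-specific one (18.4%, 7 of 38). When absence from the Phase 1 guide lists was also required, the LP-specific Med12 share was 11.6%. In windows of 20 kb, with nearest starts only, or without Id3, no sgCont RUNX1 peak was left, so the shares found with sgCTCF or sgMed12 have no value there. With 100 kb windows 6 LP and 1 Phase 2 Notch1-IC peaks were counted in place of 2 and 0, and with a score of 30 none. The small number of peaks per window sets the width of the Wilson intervals.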
